A study of Homo sapiens with 12 samples.

Results

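A set of 9 genes with more nascent transcription after an estrogen receptor antagonist was followed through all the libraries of a T47D experiment. They are ABCC5 (ENSG00000114770), EPHA4 (ENSG00000116106), TCF7L1 (ENSG00000152284), TESK2 (ENSG00000070759), FNIP1 (ENSG00000217128), MEGF9 (ENSG00000106780), EFHD1 (ENSG00000115468), EFEMP1 (ENSG00000115380) and IFT25 (ENSG00000081870). The 9 genes were picked by symbol from 59410 genes in the table of counts, because of their higher values with drug in complete medium, and all 9 were among the 23375 genes that passed the filter on low counts. T47D is an estrogen receptor-positive human breast cancer cell line. The assay was PRO-seq, which sequences RNA being made by engaged RNA polymerases in a nuclear run-on, so that its counts read transcription and not accumulated RNA. The 12 libraries formed 6 groups of 2. Cells in complete medium received vehicle (0.1% DMSO) or 100 nM of fulvestrant, of raloxifene or of tamoxifen. Cells starved of hormone received vehicle or 1 nM estradiol. Treatment lasted 1 h in each group, after a recorded 3 days in medium. All libraries came from this cell line. The labels do not state separate cultures within a group, so a p-value here compares a difference with the spread of the deposited libraries, and that spread may be technical.

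The estrogen receptor is a transcription factor that binds DNA when estradiol fills its ligand pocket, and it is known for driving growth genes in luminal breast cells. Raloxifene and tamoxifen are selective modulators that fill the same pocket and leave the receptor in a shape that recruits few coactivators, while fulvestrant in addition sends the receptor to degradation. Besides the genes it raises, the active receptor is known to hold others low, and both kinds can move when it is blocked. The 9 genes do unrelated work in the cell. ABCC5 is an efflux pump for organic anions and nucleotide analogues, EPHA4 is a receptor tyrosine kinase for ephrins, and TCF7L1 is a DNA-binding partner of beta-catenin that mostly represses Wnt targets. TESK2 is a kinase that phosphorylates cofilin, and FNIP1 is a partner of folliculin in nutrient signalling to mTORC1. MEGF9 is a membrane protein with EGF-like domains, EFHD1 is a mitochondrial calcium-binding protein, EFEMP1 is the secreted matrix protein fibulin-3, and IFT25 is a subunit of the intraflagellar transport complex B of cilia.

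Promoters of the genes with the most drug calls are shown at annotated starts, without knowledge of which starts T47D cells use. These are the 120 bases before the annotated start of the 5 genes that passed the threshold with at least 2 drugs, taken from RefSeq for GRCh38.p14 and written 5′ to 3′ on the gene's own strand. Capitals mark matches on either strand to common promoter elements. The first is the GC box, spelled GGGCGG and known as a site for Sp1-type factors. Next is the box spelled CCAAT, which NF-Y binds. The last is the core promoter box spelled TATAAA, which positions the polymerase. The stretches are chr3:184017885-184018004 on the minus strand for ABCC5, chr2:221574203-221574322 on the minus strand for the outer start of EPHA4, chr2:85133272-85133391 on the plus strand for TCF7L1, chr1:45491164-45491283 on the minus strand for TESK2 and chr5:131797018-131797137 on the minus strand for FNIP1.
ABCC5: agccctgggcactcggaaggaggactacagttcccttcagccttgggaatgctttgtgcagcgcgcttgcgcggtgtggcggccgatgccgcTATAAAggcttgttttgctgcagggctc
EPHA4: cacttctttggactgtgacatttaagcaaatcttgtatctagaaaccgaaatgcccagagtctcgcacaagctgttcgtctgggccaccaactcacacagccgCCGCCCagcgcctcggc
TCF7L1: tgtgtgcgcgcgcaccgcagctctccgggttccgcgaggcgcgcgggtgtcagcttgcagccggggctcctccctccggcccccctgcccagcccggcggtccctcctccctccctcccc
TESK2: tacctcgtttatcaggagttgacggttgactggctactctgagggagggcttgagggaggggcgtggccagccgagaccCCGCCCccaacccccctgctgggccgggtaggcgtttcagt
FNIP1: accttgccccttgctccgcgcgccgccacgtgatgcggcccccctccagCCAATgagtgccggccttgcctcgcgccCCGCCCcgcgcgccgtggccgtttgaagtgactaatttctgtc
ABCC5 alone has a TATA box, which begins 28 bases before its start. TCF7L1 has no match in the stretch shown, and its GC box begins 201 bases before the start. The inner start of EPHA4, which holds its CCAAT match, is not shown.

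Across the full 250 bases before each start, RefSeq had 10 windows for 8 of the 9 genes, with starts at more than 1 place for EPHA4 and IFT25. EFEMP1 is named only. All 10 windows held a GC box, against 58.4% of 19511 windows of tested genes. A match to CCAAT was found for EPHA4, FNIP1, MEGF9 and TESK2, against 32.4% of all windows, and the TATA box of ABCC5 compares with 6.79%. The half-site of the estrogen response element (AGGTCA) matched no member window and 9.48% of all windows. The full element, searched as the last 5 bases of that half-site followed by their inverted repeat after any 3 bases, overlaps the half-site in its letters and matched no member window and 0.041% of all. The forkhead motif TGTTTAC and the AP-1 motif TGANTCA matched none of the 10 windows either, against 2.32% and 4.84%. These motifs were searched on both strands, and the absence of a match says only that these letters are not in these windows. The GC content of the member windows had a median of 73.2% and ran from 43.2% at the outer EPHA4 start to 78.0% at its inner start, against a median of 63.6% over all windows.

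Library totals ran from 3682311 to 7856803 counts, both in the raloxifene group, and within-group correlations across genes from 0.976 for raloxifene to 0.989 for starved vehicle. All 7 luminal markers were present in every library, the lowest being FOXA1 at 122 CPM (counts scaled by library size to the usual CPM unit). Marker CPM were scaled by library size alone, whereas all other CPM values here also used TMM scaling. The 9 markers of fibroblasts, endothelium, leukocytes and basal cells summed to 22.0 to 32.6 CPM, most of it COL1A1, and KRT5 was at 0 in 8 libraries. GREB1, a classical estrogen target, rose by 2.22 ± 0.055 (log2, SE) with estradiol and fell by 1.15 ± 0.053 with fulvestrant. It was at -0.47 ± 0.052 with raloxifene and at -0.25 ± 0.052 with tamoxifen, where it did not pass the threshold of 0.05. The other treatment controls, PGR and ESR1, were higher with estradiol and lower with fulvestrant, and neither passed with tamoxifen. As in any bulk sample, fewer cells of a type and less RNA per cell cannot be told apart here. The 9 genes were well covered, with 352 to 3075 raw counts in any library.

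All 9 genes were transcribed less after 1 h of estradiol than with vehicle in starved cells. This is the 1 comparison that shares no library with the drug comparisons that chose the genes. It was tested with edgeR's quasi-likelihood test, with Benjamini-Hochberg adjustment over all 23375 genes. Earlier results of these data were known when the genes were chosen, so their choice may not be independent of this comparison. All 9 passed the threshold of 0.05 in the lower direction, where 3.74% of all tested genes did, and in all 9 the 2 estradiol libraries lay below both vehicle libraries, where 26.3% of all genes did. Their median log2 fold change was -0.55, against -0.01 over all tested genes.

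EPHA4, the ephrin receptor, fell furthest. It stood at 246 and 223 CPM in the 2 starved vehicle libraries and at 112 CPM in both estradiol libraries. Both vehicle libraries lay far above both estradiol libraries for the spread within either group. The log2 fold change was -1.07 ± 0.068 (edgeR adjusted p = 3.4e-10). EFEMP1, the gene of fibulin-3, moved from 123 and 129.5 CPM to 61.3 and 64.5 CPM. Its log2 fold change was -1.01 ± 0.091 (edgeR adjusted p = 8.1e-08), and both of its groups were tight. TESK2, the cofilin kinase, was at 136 and 114 CPM with vehicle and at 67.3 and 76.5 CPM with estradiol. The gap between its groups was wider than the spread within either, at -0.80 ± 0.083 (edgeR adjusted p = 5.7e-07). EFHD1, the mitochondrial calcium-binding protein, was at 156 and 149 CPM with vehicle and at 89.0 and 91.9 CPM with estradiol, a log2 fold change of -0.75 ± 0.070 (edgeR adjusted p = 1.3e-07).

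The other 5 genes fell by less. TCF7L1, the Wnt repressor, was at 301 and 282 CPM with vehicle and at 220.2 and 179 CPM with estradiol. Its estradiol libraries were the least alike of any member, and its log2 fold change was -0.55 ± 0.070 (edgeR adjusted p = 1.1e-05). MEGF9 went from 186 and 184 CPM to 121 and 135 CPM, and its vehicle libraries were nearly equal. IFT25, the cilium subunit, went from 105 and 96.2 CPM to 71.9 and 68.8 CPM. Their log2 fold changes were -0.54 ± 0.061 and -0.52 ± 0.093, with edgeR adjusted p-values of 2.4e-06 and 0.00061. FNIP1, the folliculin partner, was at 329.7 and 336 CPM with vehicle and at 243 and 247 CPM with estradiol, a change of -0.44 ± 0.058 on the log2 scale (edgeR adjusted p = 1.7e-05). ABCC5, the efflux pump, fell least, from 264 and 265 CPM to 213 and 205 CPM, yet its groups were far apart for their spread. Its log2 fold change was -0.34 ± 0.052 (edgeR adjusted p = 0.00012).

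**Figure D1:**
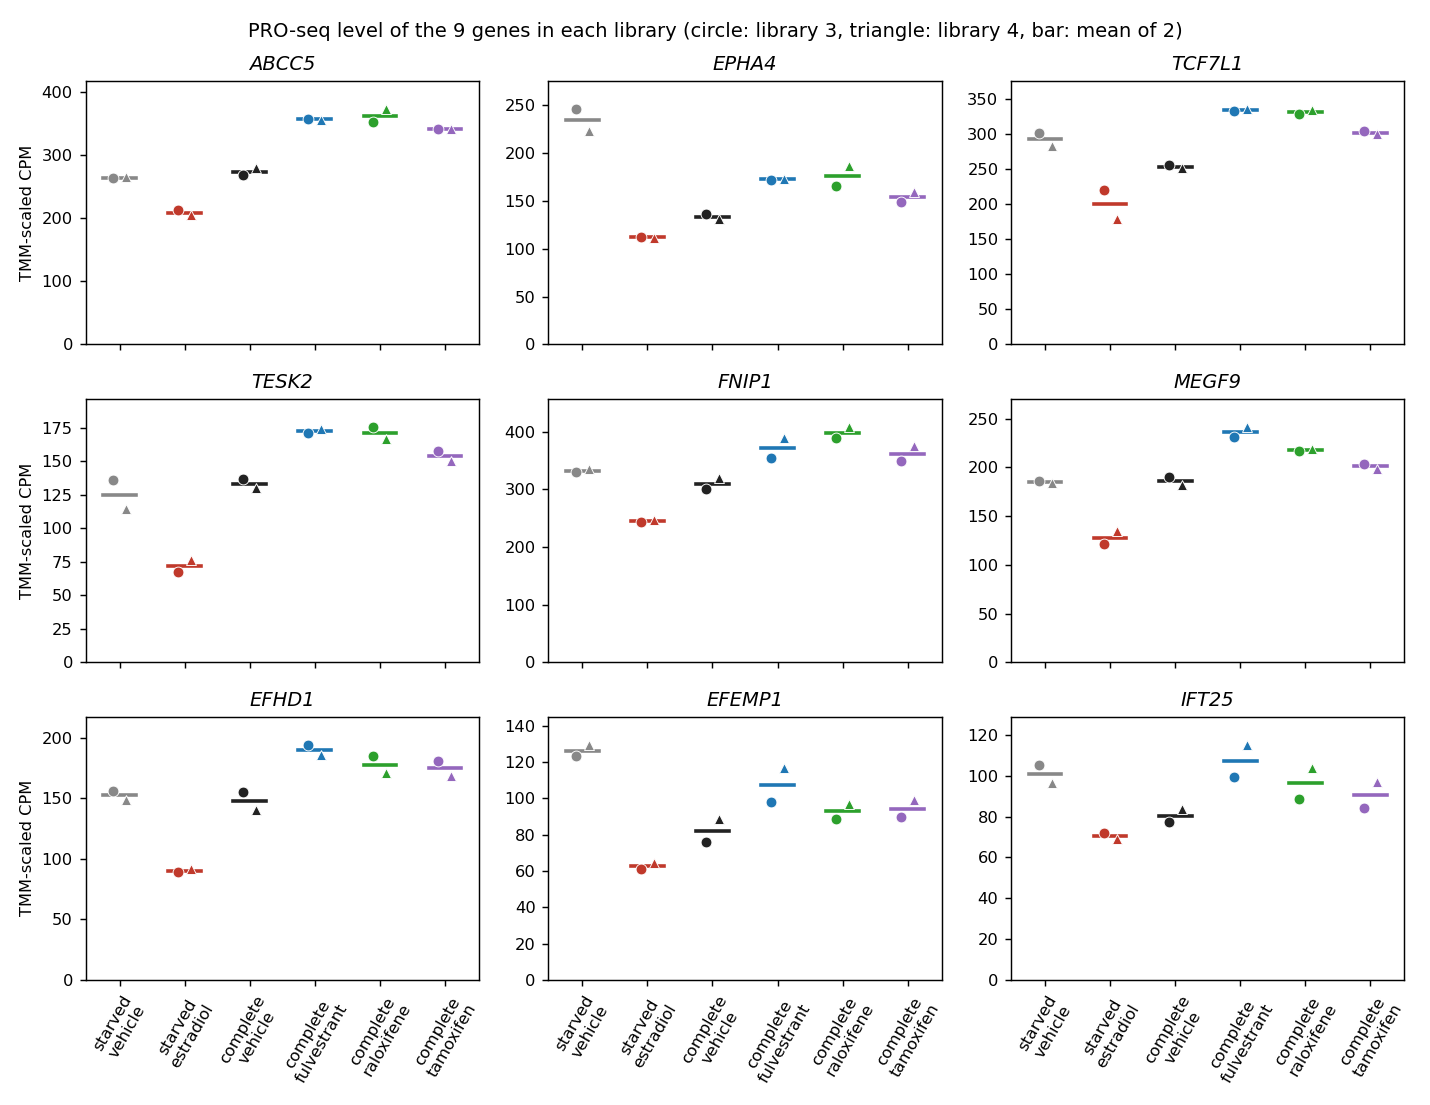
TMM-scaled CPM of the 9 genes in each of the 12 libraries, with 1 panel a gene, the 6 groups along the x axis, points for libraries and bars for the mean of 2. The starved estradiol libraries are the lowest of all in each panel, and EPHA4 and EFEMP1 differ from the other 7 genes in that starved vehicle is their highest group.

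The drug values are the ones that chose the genes, so they are given as a description with no test. With fulvestrant, log2 fold changes against complete vehicle ran from 0.26 ± 0.058 for FNIP1 to 0.42 ± 0.093 for IFT25, with a median of 0.37. By DESeq2 6 of the 9 passed the threshold with fulvestrant. By edgeR all 9 did, where 0.107% of tested genes did so in the higher direction, and the rule itself makes this count. FNIP1 is thus the smallest rise among them and MEGF9, at 0.34, the next above it. The other 16 genes that passed ran from 0.20 for PHF20 to 0.57 for IL1R1, and IL1R1 and ENSG00000285133, at 0.41, were the 2 of them above MEGF9. Without complete vehicle library 3, complete vehicle library 4 or fulvestrant library 4, the count fell to 4, 2 or 3 of the 9.

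ABCC5, the efflux pump, was at 269 and 279 CPM with vehicle in complete medium, at 358 and 356 CPM with fulvestrant, at 352 and 373 CPM with raloxifene and at 342 CPM in both tamoxifen libraries. All 6 drug libraries lay above both vehicle libraries by more than the spread within any group. TCF7L1 stood at 256 and 250.5 CPM with vehicle, at 332 and 335 CPM with fulvestrant, at 328 and 334 CPM with raloxifene and at 303.5 and 299.5 CPM with tamoxifen. TESK2 stood at 137 and 129.7 CPM with vehicle, at 171 and 174 CPM with fulvestrant, at 176 and 166 CPM with raloxifene and at 158 and 150.5 CPM with tamoxifen. In both TCF7L1 and TESK2 the fulvestrant and raloxifene libraries overlapped, and the tamoxifen libraries lay between them and vehicle. EPHA4 stood at 136 and 131 CPM with vehicle, at 172 and 173 CPM with fulvestrant, at 165 and 187 CPM with raloxifene and at 149 and 159 CPM with tamoxifen. FNIP1 stood at 300.4 and 319 CPM with vehicle, at 354 and 389.8 CPM with fulvestrant, at 389 and 408 CPM with raloxifene and at 349 and 375 CPM with tamoxifen. FNIP1 was the member whose raloxifene value stood highest above its fulvestrant value, by 0.10 on the log2 scale.

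The remaining 4 genes had their largest drug value with fulvestrant, as TCF7L1 and TESK2 also did. MEGF9 stood at 190.2 and 182.5 CPM with vehicle, at 231 and 241.5 CPM with fulvestrant, at 217 and 218 CPM with raloxifene and at 204 and 198 CPM with tamoxifen. EFHD1 stood at 155 and 140.5 CPM with vehicle, at 194 and 185.5 CPM with fulvestrant, at 185 and 170.6 CPM with raloxifene and at 181 and 169 CPM with tamoxifen. In MEGF9 the 3 drugs kept a clear order, whereas in EFHD1 the raloxifene and tamoxifen libraries overlapped. EFEMP1 stood at 75.9 and 88.8 CPM with vehicle, at 97.9 and 117 CPM with fulvestrant, at 88.9 and 96.8 CPM with raloxifene and at 89.9 and 99.0 CPM with tamoxifen. IFT25 stood at 77.1 and 83.5 CPM with vehicle, at 99.3 and 115 CPM with fulvestrant, at 88.7 and 104 CPM with raloxifene and at 84.3 and 96.7 CPM with tamoxifen. For EFEMP1 the lower raloxifene library was 88.9 CPM beside 88.8 CPM in the higher vehicle library, and for IFT25 the lower tamoxifen library was 84.3 CPM beside 83.5 CPM, so these groups were separated only narrowly. Of the drug values of the 9 genes, those of EFEMP1 and IFT25 were the ones that moved by over 1.5 times when a library was left out. EFEMP1 moved from 0.39 to 0.26 on the log2 scale with fulvestrant without fulvestrant library 4, and from 0.17 with raloxifene to 0.05 or 0.27 without complete vehicle library 3 or 4. With tamoxifen it moved from 0.20 to 0.08, 0.31 or 0.13 without complete vehicle library 3, complete vehicle library 4 or tamoxifen library 4. IFT25 moved from 0.24 with raloxifene to 0.37 or 0.15 without raloxifene library 3 or 4. With tamoxifen it moved from 0.17 to 0.11, 0.27 or 0.07 without complete vehicle library 3, tamoxifen library 3 or tamoxifen library 4.

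With raloxifene the log2 fold changes of the 9 genes ran from 0.17 ± 0.094 for EFEMP1 to 0.40 ± 0.052 for ABCC5, with a median of 0.36. By edgeR 0.0898% of tested genes passed the threshold in the higher direction with raloxifene. ABCC5, EPHA4, TCF7L1, TESK2 and FNIP1 did so, and by DESeq2 4 of the 9 passed. That count of 5 fell to 1 or 2 when complete vehicle library 3 or 4 was left out. With tamoxifen they ran from 0.11 ± 0.059 for MEGF9 to 0.32 ± 0.051 for ABCC5, with a median of 0.21. ABCC5 was the 1 gene of all those tested that passed in the higher direction with tamoxifen, 0.00428% of them, and it no longer passed without either complete vehicle library or either tamoxifen library. All 9 genes were higher in both libraries of each drug than in both vehicle libraries, which was so for 19.2% of genes with fulvestrant, 18.7% with raloxifene and 16.9% with tamoxifen. Nothing is read from this count, since the genes were chosen for their higher values in these same libraries. The 3 drug comparisons share their vehicle libraries, so their likeness is not a separate result.

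Set against each other at the same dose and time, the drugs gave ABCC5 values whose widest difference, tamoxifen minus raloxifene, was -0.08 ± 0.050 on the log2 scale. Tamoxifen values were below fulvestrant values for all 9 genes, by log2 differences from -0.04 for FNIP1 to -0.25 for IFT25, and the libraries did not overlap in 7 of them, where 15.4% of all genes were lower without overlap. Raloxifene minus fulvestrant ran from -0.22 for EFEMP1 to 0.10 for FNIP1, with no overlap in the lower direction for 3 genes, against 15.9% of all genes. Tamoxifen minus raloxifene ran from -0.18 for EPHA4 to 0.03 for EFEMP1, with 6 genes lower without overlap, against 14% of all genes. These differences are descriptions, since the drug libraries helped choose the genes.

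**Figure D2:**
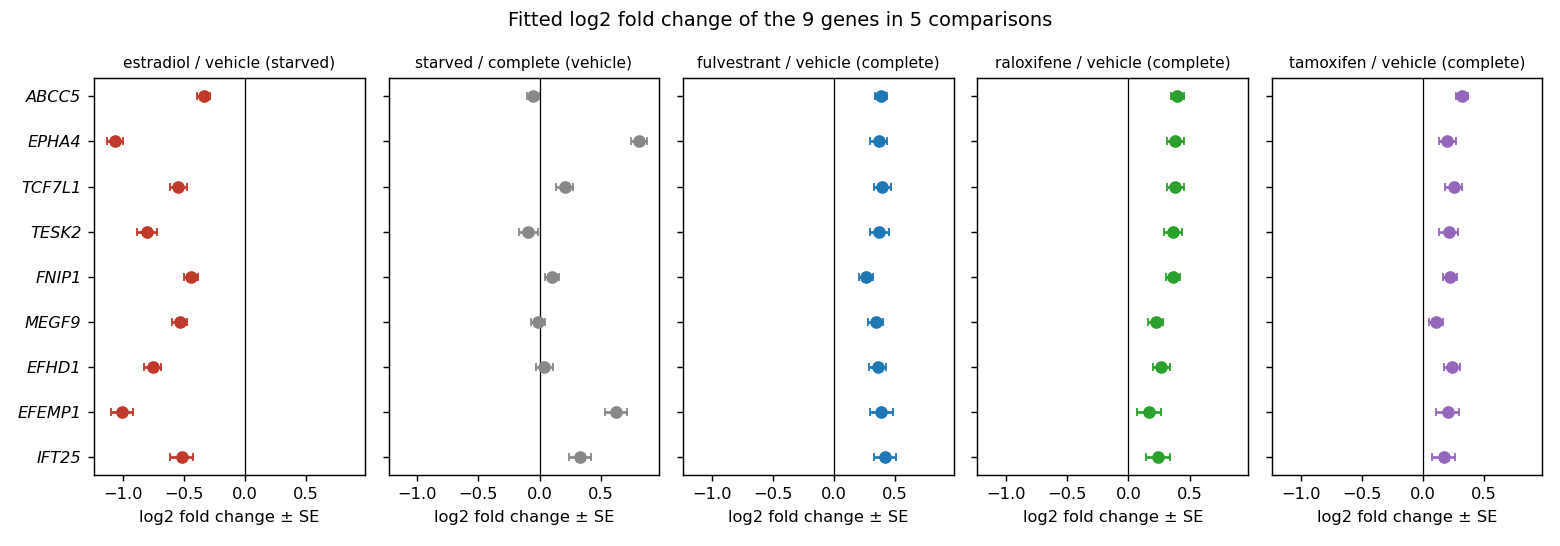
Log2 fold changes of the 9 genes with bars of 1 standard error, in 5 panels: estradiol in starved cells, the 3 drugs in complete medium, each set against its vehicle, and starved against complete vehicle. Estradiol values lie between -1.07 and -0.34, drug values between 0.11 and 0.42, and the starvation values are spread from -0.09 to 0.81.

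Between the media, 4 of the 9 genes were higher in starved than in complete vehicle and 5 did not pass. Starved vehicle stood above complete vehicle by 0.81 ± 0.067 on the log2 scale for EPHA4, by 0.62 ± 0.088 for EFEMP1, by 0.33 ± 0.092 for IFT25 and by 0.20 ± 0.069 for TCF7L1. These 4 passed the threshold in the higher direction, where 9.1% of all tested genes did. The values are a description, because the complete vehicle libraries also served to choose the genes, and the count was 2 without starved vehicle library 3, without complete vehicle library 3 or by DESeq2. For the other 5 genes the difference was between -0.09 ± 0.077 for TESK2 and 0.10 ± 0.058 for FNIP1. Outside the 4, FNIP1 was higher without overlap, where 29.7% of all genes were, and ABCC5 lower without overlap, where 29% were, while TESK2, MEGF9 and EFHD1 overlapped between the 2 media. These 3 changed sign when 1 library was left out, TESK2 to 0.03 without starved vehicle library 4, MEGF9 to 0.02 without complete vehicle library 3 and EFHD1 to -0.02 without complete vehicle library 4.

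In the order of the 6 groups, starved estradiol was the lowest group for all 9 genes, and did not overlap with the next. For EPHA4 the order upward was estradiol, complete vehicle, tamoxifen, fulvestrant, raloxifene and starved vehicle, and only fulvestrant and raloxifene overlapped as neighbours. EFEMP1 also had starved vehicle on top, and below it the raloxifene and tamoxifen libraries overlapped, as did those of tamoxifen and fulvestrant. For IFT25 the starved vehicle libraries, at 105 and 96.2 CPM, lay among the drug libraries. A drug group was on top for 7 genes, namely raloxifene for ABCC5 and FNIP1 and fulvestrant for TCF7L1, TESK2, MEGF9, EFHD1 and IFT25. The starved and complete vehicle libraries of TESK2, MEGF9 and EFHD1 overlapped as neighbours. Estradiol libraries were also below complete vehicle libraries for all 9, without overlap, where 27.6% of all genes were. The complete vehicle libraries also served to choose the genes, so these values are a description and nothing is read from the count of 8 of the 9 past the threshold, where 8.11% of genes were in the lower direction. The log2 differences ran from -0.89 ± 0.084 for TESK2 to -0.19 ± 0.098 for IFT25, the 1 that did not pass.

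The 9 genes were then set beside all genes raised by an antagonist. Of 23375 tested genes, 36 passed the threshold in the higher direction with at least 1 drug, which is 0.154%. Of these 36, 27 were lower with estradiol in starved cells, none was higher and 9 did not pass. Outside the 9 genes, 18 of 27 were lower with estradiol and none was higher, with a median log2 fold change of -0.42. Over all tested genes 3.74% were lower and 5.04% higher, with a median of -0.01. The median level was 164 CPM for the 9 and 156 CPM for the 27, against 15.9 CPM over all tested genes. The shares were not matched for level. For the absent direction, the count by edgeR was 0 also at an unadjusted p under 0.05, and 0 by DESeq2. All 10 genes raised by at least 2 drugs were lower with estradiol, namely ABCC5, BACH1, BLNK, DIP2B, ENSG00000288208, EPHA4, FNIP1, NEDD4L, TCF7L1 and TESK2. Of the 25 genes raised by fulvestrant 24 were lower with estradiol, and of the 21 raised by raloxifene 13 were. Among the fulvestrant genes outside the 9, IL1R1, which encodes an interleukin receptor, stood at -1.06 ± 0.091 with estradiol and ARID5B, which encodes a chromatin factor, at -0.93 ± 0.054, beside -1.07 for EPHA4 and -1.01 for EFEMP1. The number of genes raised depended on single libraries. Leaving out complete vehicle library 3 gave 10, of which 8 were lower with estradiol, and leaving out library 4 of that group gave 8, of which 7 were lower. It was 181 without raloxifene library 3, with 34 lower and 1 higher, and 90 without raloxifene library 4, with 37 lower. Each starved vehicle library left out gave 24 with 21 lower. By DESeq2 it was 18, with 17 lower, without TMM scaling 55, with 42 lower, and without the filter on low counts 172, with 42 lower. With the replicate block, given below, more genes were raised, a smaller share of them was lower and some were higher.

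**Figure D3:**
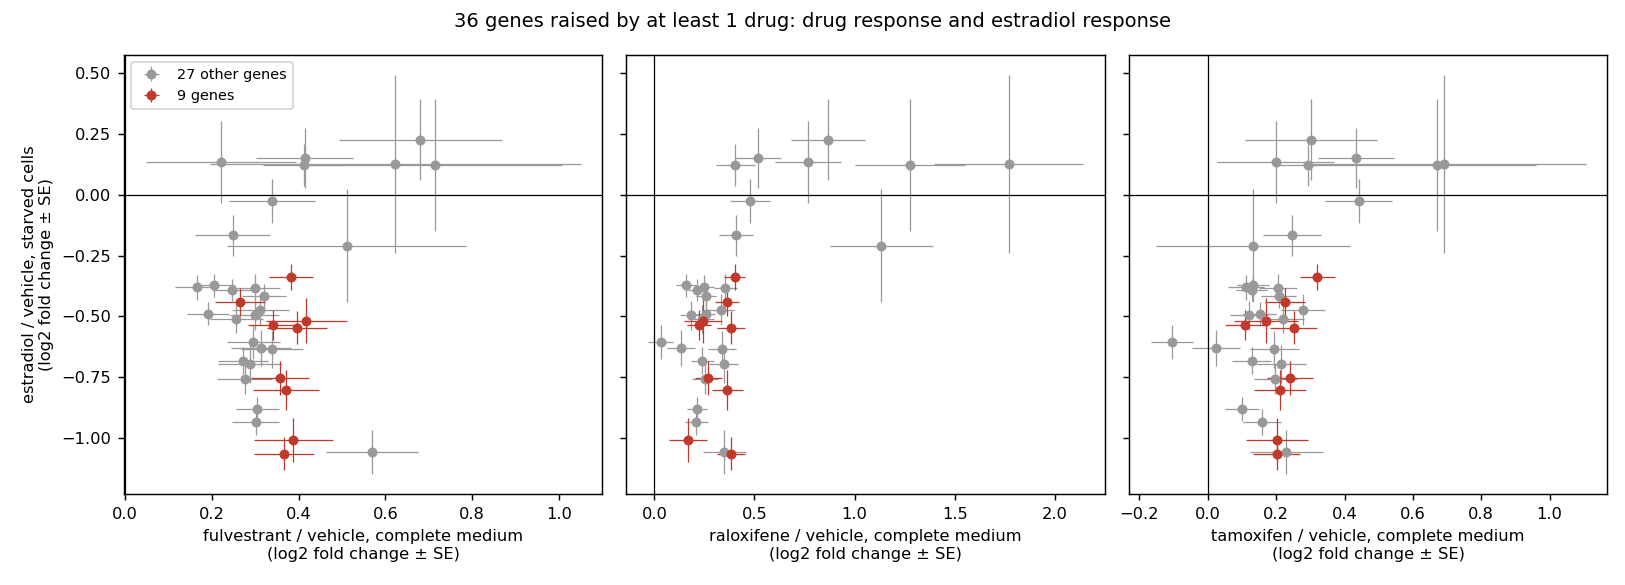
Log2 fold change with estradiol in starved cells (y axis) against that with a drug in complete medium (x axis, 1 panel a drug), with bars of 1 standard error, for the 36 genes raised by at least 1 drug and with the 9 described genes in their own colour. The 9 lie between -1.07 and -0.34 on the y axis, and the genes near 0 there are outside the 9.

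On the chromosomes (hg38) the 9 genes are scattered. TESK2 spans 45343883 to 45491163 and IFT25 spans 53911576 to 53946305 of chromosome 1. EFEMP1 at 55865967 to 55923782, TCF7L1 at 85133392 to 85310387, EPHA4 at 221418027 to 221574202 and EFHD1 at 232606057 to 232682776 are on chromosome 2. ABCC5 spans 183919934 to 184017884 of chromosome 3, FNIP1 131641714 to 131797017 of chromosome 5 and MEGF9 120600811 to 120714470 of chromosome 9. Their spans had a median of 113.66 kb and ran from 34.73 kb for IFT25 to 176.996 kb for TCF7L1, against a median of 35.037 kb over 14563 tested protein-coding genes. Their mean level also had a median of 164 CPM against 15.9 CPM over all tested genes. The other 27 genes raised by a drug had a like median level, 156 CPM. Of these 27, 20 were protein-coding genes with a RefSeq span, and those 20 had a median span of 140.5 kb. Per kb of gene span, the highest mean level was 3.08 CPM for ABCC5 and the lowest 0.94 CPM for TESK2, with IFT25 second at 2.62 CPM.

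Of the 18 nearest tested genes, 1 on each side of each member, 2 were lower with estradiol by edgeR, where 3.74% of all tested genes were. By DESeq2 1 of the 18 passed. RAPGEF6, a Rap GTPase exchange factor gene 6.484 kb from FNIP1, fell by 0.56 ± 0.056 on the log2 scale, and CDK5RAP2, a centrosome protein gene 20.643 kb from MEGF9, fell by 0.21 ± 0.055. None of the 18 passed with fulvestrant by edgeR, where 0.107% of all genes were higher and 1.05% lower. Of the 18, 2 were at an unadjusted p under 0.05 and 0 passed by DESeq2, and their values ran from -0.37 to 0.74. Several had few counts, such as DIO1, the gene at 0.74 ± 0.532, with a mean of 1.34 CPM, and CYP2AB1P, with 0.82 CPM. Genes at such levels could hardly pass, so a count of 0 says little of them. The count with tamoxifen was 0 by edgeR, where 0.00428% of all genes were higher, with 1 at an unadjusted p under 0.05 and 0 by DESeq2. CCDC85A, 260.069 kb from EFEMP1, passed with raloxifene by edgeR (adjusted p = 0.047) but not by DESeq2. It went in the lower direction, as 0.479% of all genes did, at -0.41 ± 0.092. IFT25 starts 44 bases from LRRC42, which lies on the other strand. LRRC42 stood at 0.38 ± 0.139 with fulvestrant, 0.30 ± 0.142 with raloxifene, 0.39 ± 0.136 with tamoxifen and -0.20 ± 0.135 with estradiol. None of these values passed the threshold. With tamoxifen it was the 1 neighbour at an unadjusted p under 0.05. The tested genes that overlap one of the 9 by any length, ABCC5-AS1, TOE1 (at the end of TESK2) and ACTBP4, had estradiol values of 1.01 ± 0.712, 0.57 ± 0.206 and -0.52 ± 0.404, none past the threshold. No source used here gives the strand setting of the counting, so reads of such overlapping pairs cannot be told apart.

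**Figure D4:**
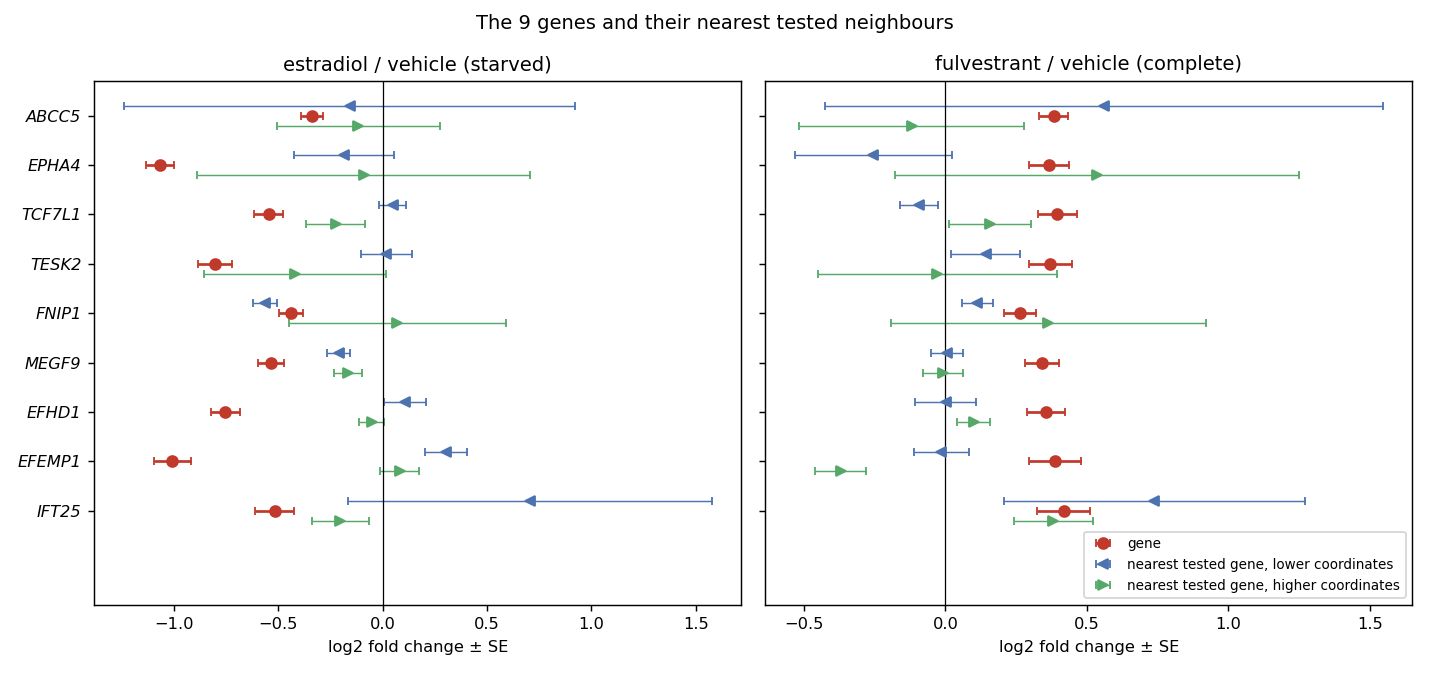
Log2 fold changes of each of the 9 genes and its nearest tested gene on either side, with bars of 1 standard error, for estradiol and for fulvestrant. The described genes are at -0.34 or lower with estradiol. Of the 18 neighbours RAPGEF6 at -0.56 and CDK5RAP2 at -0.21 passed the threshold, and neighbours with few counts have wide bars.

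Among families and partners of the 9 genes, some rose and some fell with estradiol. In all, 9 lists held 137 such genes, of which 132 were tested, and with estradiol 10 of these were higher and 13 lower, or 7.58% and 9.85%, against 5.04% and 3.74% of all tested genes. The medians of the 9 lists ran from -0.21 to 0.06, against -0.01 over all tested genes. The list with the most lower genes was that of TCF/LEF factors and beta-catenin partners, with 6 of 21 lower, 1 higher and a median of -0.11. There the corepressor gene TLE1 fell by 0.68 ± 0.056, the Wnt receptor ligase gene RNF43 by 0.70 ± 0.093, TCF7L2 by 0.39 ± 0.053 and BCL9L by 0.40 ± 0.077 on the log2 scale. Of 20 Eph receptors and ephrins, EFNA1, EFNB2 and EPHB3 were lower and EPHA8 was higher, with a median of -0.21. EFNA1, a ligand of EPHA4, fell by 0.46 ± 0.098, and EPHA8 rose by 1.54 ± 0.221.

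Among 10 ABCC transporters, ABCC11 and ABCC12 rose by 0.93 ± 0.074 and 0.72 ± 0.094, opposite to ABCC5, and the list's median was 0.06. Of 15 genes around TESK, LIMK and cofilin, the kinase genes PAK4 and PAK1 were higher, at 0.50 and 0.38, and the cofilin relative DSTN and PAK2 were lower, at -0.53 and -0.19. In the folliculin, AMPK and mTORC1 list 1 of 21 changed, the AMPK subunit gene PRKAG2, which rose by 0.95 ± 0.089. Of 9 genes of mitochondrial calcium handling, the carrier genes SLC25A24 and SLC25A25 were higher, at 0.85 and 0.61, and the uniporter gene MCU fell by 0.24 ± 0.073. Of 16 fibulins and elastic fibre proteins, LTBP1 was higher, at 0.30 ± 0.065, and LTBP3 lower, at -0.49 ± 0.121. None of 16 genes of the intraflagellar transport complex B passed by edgeR, with 2 at an unadjusted p under 0.05 and 0 by DESeq2, and none of 4 genes of the MEGF family, with 0 at an unadjusted p under 0.05 and 0 by DESeq2.

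Drugs changed few genes of these lists. With fulvestrant TLE1 was higher, at 0.27 ± 0.057, and ABCC11, PRKAG2 and LTBP1 were lower, at -0.28, -0.41 and -0.34, where 1.05% of all genes were lower. TLE1, like TCF7L1 with which its protein can act in repression, was thus higher with fulvestrant and lower with estradiol by edgeR. By DESeq2, 1 of the 132 passed with fulvestrant, in the fibulin list, so the fulvestrant calls of TLE1, ABCC11 and PRKAG2 were lost. By edgeR none of the 132 changed with raloxifene, with 12 at an unadjusted p under 0.05 and 0 by DESeq2, and none with tamoxifen, with 5 at an unadjusted p under 0.05 and 0 by DESeq2.

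Likeness of profile was measured as Pearson's r over the 6 group means of log2 CPM, which share the scaling of the same libraries, and is a description. The nearest among 14628 genes compared were TTC3 and PPFIBP2 for EPHA4, at 0.997 and 0.996, and LRRC1 and STOM for EFEMP1, at 0.996 and 0.995. RIMS1 and SCN8A were nearest to FNIP1, at 0.998 and 0.994, and GNAI1 and RERE to EFHD1, at 0.998 and 0.997. For ABCC5 they were RRAGC-DT and BRI3, at 0.996 and 0.994, for TCF7L1 ATRNL1 and APOLD1, at 0.994 and 0.992, and for MEGF9 CEL and UBN2, at 0.996 and 0.995. MCC and ENSG00000288208 were nearest to TESK2, both at 0.999, and BNIP3 and CMYA5 to IFT25, at 0.990 and 0.986. CEL and BNIP3 were low and uneven, CEL at 12.6 and 6.04 CPM with tamoxifen and BNIP3 at 10.7 and 16.1 CPM with complete vehicle. Within those groups their libraries differed by more than their group means did. ENSG00000288208 was itself among the genes raised by at least 2 drugs. Among the 9, the least alike pair was ABCC5 and EPHA4, at 0.44, while EPHA4 and EFEMP1, the pair with starved vehicle on top, stood at 0.96.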

How the data were processed

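PRO-seq was measured in 12 T47D libraries, 2 in each of 6 groups, grouped by their labels. Library numbers 3 and 4 are those of the descriptions. Starvation is known from the group names alone, since the protocol in the labels covers complete medium. The authors deposited raw, unscaled counts, 1 row an Ensembl ID. The submitters' processing notes name cutadapt 1.8.1, SAMtools 1.9, Bowtie2 2.4.4 and genome build hg38. No source used here gives the counter, the annotation, the strand setting or the part of a gene that was counted, so promoter-proximal and gene-body polymerase are not separated.

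Of 60605 IDs, 60463 had a symbol. The 142 without one held 0.28% of counts, and 1195 IDs left out for a shared symbol held 0.074%. In R 4.3.3, edgeR 4.0.16 was applied to these counts with filterByExpr (23375 genes kept), TMM scaling and a quasi-likelihood model of the 6 groups over all 12 libraries. P-values were adjusted by Benjamini-Hochberg over the 23375 genes (threshold 0.05, two-sided). Standard errors are the fitted log2 fold change over the root of its F value. The script was tested on simulated data. No group's libraries were duplicates, since their counts differed by more than sampling noise (chi-square per gene 1.2 to 2.34).

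The 9 genes and all lists were chosen with earlier results of these data known. Only estradiol against vehicle was tested for the 9, since the other comparisons share libraries with those that chose them. Named beside the 9 were overlapping and nearest tested genes, the 2 genes of mean count 50 or more closest in profile, list members past the threshold (up to 4 a list and comparison, by adjusted p), and treatment controls. Alternatives were DESeq2 1.42.0, its size factors in edgeR, no TMM, no filter, a replicate block, fitting compared groups alone and leaving out each library. Promoters and positions came from RefSeq, GRCh38.p14, matched by symbol.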

Additional observations from a re-analysis of the deposited data

How the results depend on the processing

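All 9 genes stayed lower with estradiol under DESeq2, DESeq2 size factors in edgeR, no TMM scaling, no filter and the replicate block. They also did in a fit of the compared groups alone and without each starved library, which completes the alternatives run for them. The highest adjusted p over these was 0.027, for IFT25. Over all genes, 1177 were higher and 874 lower with estradiol, against 723 and 398 by DESeq2 and 1597 and 1407 with the replicate block. Without TMM scaling they were 1024 and 1217, which turned the balance of directions. Leaving out a library gave 701 to 822 higher and 443 to 504 lower. With 1 library left out, a group of 1 is assumed to vary like the others. The number of the 9 past the threshold was 2 to 6 with fulvestrant, 1 to 4 with raloxifene, 0 with tamoxifen each time and 2 to 3 with starvation when a library was left out. By DESeq2 it was 6 with fulvestrant, 4 with raloxifene, 1 with tamoxifen and 2 with starvation. With tamoxifen it was 3 without the filter and 4 with the replicate block.

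The 36 genes raised by at least 1 drug, with 27 lower and 0 higher with estradiol (75%), became 55 with 42 lower without TMM, 18 with 17 lower by DESeq2, and 172 with 42 lower (24.4%) without the filter. With the replicate block they became 286, with 92 lower (32.2%) and 7 higher. Leaving out a library gave 8 to 181 raised, 7 to 37 lower (18.8% to 87.5%) and 0 to 1 higher. The cause of these changes was not tested. No log2 fold change of the 9 with a drug changed sign in any alternative. With starvation 85 of 90 kept their sign. Libraries of the same number correlated at 0.099 to 0.423 in their deviations from group means, above 0.1 in 14 of 15 pairs of groups. With 2 pairs a comparison and no label that says what a number marks, they are treated as sharing only a number. Depth was at least 352 counts in each library for each of the 9 genes.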

Other observations

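Raloxifene raised 8 further genes that did not pass the threshold with estradiol, unlike the 9 described above. They include SF3B6, a splicing factor gene, which was at 103 and 95.5 CPM with complete vehicle and at 146 and 139 CPM with raloxifene, a log2 fold change of 0.52, and KCNMB2, a potassium channel subunit gene, at 2.54 and 3.67 CPM against 7.72 and 6.88 CPM, a log2 fold change of 1.28. NHSL2 was at 3.34 and 4.28 CPM with vehicle and at 8.61 and 7.70 CPM with raloxifene, and the proteasome assembly gene PSMG1 had a log2 fold change of 0.48. How many genes passed with raloxifene depended on single libraries, as given above. Whether these genes differ from the 9 in their response to estradiol was not tested.

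Several genes raised by fulvestrant outside the 9 also fell with estradiol in starved cells. KYNU, an enzyme of tryptophan breakdown, stood at -0.88 ± 0.050 on the log2 scale, the phosphatase gene PTPN14 at -0.76 ± 0.062 and RNF152 at -0.63 ± 0.074. Each of these rose with fulvestrant, by 0.30, 0.28 and 0.31.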
